A study of Mus musculus with 4 samples.

Results

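The genes described here write, erase and read methylation of cytosine in DNA: the maintenance pair Dnmt1 and Uhrf1, the de novo methyltransferase genes Dnmt3a and Dnmt3b, the oxidase genes Tet1, Tet2 and Tet3, and Mbd2 and Mbd3 of the methyl-CpG-binding domain family. They were chosen by symbol and by no cutoff on their values, though earlier results of these data were known. All 9 were among the 13881 genes of the deposited table. The libraries came from neural progenitor cells of C57BL/6 mouse forebrain, taken at embryonic day 14 and grown in medium with 2% B27, EGF at 20 ng/ml and FGF-2 at 20 ng/ml, so that they kept dividing. One group (shRybp, 2 libraries) was infected with a lentivirus that expresses a short hairpin RNA against Rybp, a Polycomb-associated protein, and the other is labelled as the control for that hairpin (ctrl, 2 libraries), and the sources used here do not give its vector. The comparison addresses what depletion of Rybp does to gene expression in dividing progenitors. The labels do not say that the libraries of a group came from separate cultures, so the p-values speak only of the spread between these libraries, and that spread may be technical.

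Dnmt1 copies the methylation pattern of the parental strand onto the new strand behind the replication fork, and Uhrf1 brings it there by recognising hemimethylated CpG. Dnmt3a and Dnmt3b set new methylation, and Tet enzymes oxidise 5-methylcytosine, which opens the way to its removal by base excision repair or by dilution at division. Mbd2 binds methylated CpG, while mammalian Mbd3 binds it poorly, and both serve as alternative subunits of the NuRD chromatin remodelling complex. In the developing forebrain Dnmt1 is needed for the survival of dividing progenitors and their progeny, and Dnmt3a and the Tet proteins are linked to the passage from progenitor to neuron and glia.

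Promoter stretches of the 2 genes that rose in shRybp, Uhrf1 and Dnmt1, and of Tet2, the gene that fell, are shown because the results turn on these 3 genes. Each is RefSeq sequence on GRCm38.p6, 5′ to 3′ on the strand of the gene, in lower case, and holds no annotated exon base of its gene. The first Uhrf1 stretch lies before the first annotated base of the gene, and the other 3 lie within the annotated span of their genes, before RefSeq starts further in. Capitals mark a match to any of 4 words of 7 letters that form the core of the E2F motif. The words were TTCCCGC and the related form TTCGCGC, which share their first bases, and a similar pair that consisted of TTGCCGC and the remaining form TTGGCGC, all searched on both strands with overlaps allowed. E2F factors drive many genes of DNA replication. Dnmt1 has another stretch free of exon bases, chr9:20959889-20960138, before its first annotated base, which holds no word and is not printed. Its window at chr9:20952574-20952873, the only one of Dnmt1 with words, gave no stretch free of exon bases to print.
Uhrf1, chr17:56303087-56303320, plus strand: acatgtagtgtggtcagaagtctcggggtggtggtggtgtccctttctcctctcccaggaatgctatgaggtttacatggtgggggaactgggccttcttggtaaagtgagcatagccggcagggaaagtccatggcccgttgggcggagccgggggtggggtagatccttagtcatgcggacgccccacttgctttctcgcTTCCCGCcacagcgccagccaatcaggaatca
Uhrf1, chr17:56304063-56304312, plus strand: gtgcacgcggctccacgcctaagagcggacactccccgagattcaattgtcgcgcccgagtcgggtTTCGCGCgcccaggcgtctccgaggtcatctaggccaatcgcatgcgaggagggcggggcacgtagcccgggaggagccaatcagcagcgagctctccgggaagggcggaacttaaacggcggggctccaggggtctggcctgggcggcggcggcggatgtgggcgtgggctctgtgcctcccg
Dnmt1, chr9:20952980-20953229, minus strand: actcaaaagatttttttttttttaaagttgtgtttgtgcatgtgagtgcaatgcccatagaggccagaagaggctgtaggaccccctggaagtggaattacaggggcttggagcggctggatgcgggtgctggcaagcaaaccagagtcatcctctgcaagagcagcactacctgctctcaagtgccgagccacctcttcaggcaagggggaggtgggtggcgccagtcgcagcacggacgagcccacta
Tet2, chr3:133544391-133544640, minus strand: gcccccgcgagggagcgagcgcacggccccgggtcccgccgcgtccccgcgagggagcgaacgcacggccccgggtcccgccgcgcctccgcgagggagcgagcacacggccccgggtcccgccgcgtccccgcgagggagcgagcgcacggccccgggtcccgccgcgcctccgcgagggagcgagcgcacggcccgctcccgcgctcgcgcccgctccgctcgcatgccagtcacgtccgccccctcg

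In windows from 250 bases before to 50 bases after each RefSeq start, 13 windows were found for 8 of the genes (2 of the 3 windows of Dnmt3a overlap), and Mbd2 had none. A word stood in 4 of these windows, of 3 genes, against 9.57% of all 32851 windows of that size. Each of the 4 words searched for holds a CpG. The ratio of observed to expected CpG had a median of 0.38 over all windows, and most of the 13 were above it. The shares are not matched for CpG, and the part of CpG content in them was not tested. Both Uhrf1 windows held 1 word, 48 and 184 bases before the start. Of the 3 Dnmt1 windows, that at chr9:20952574-20952873 held 3 words (GCGCGAA, the reverse complement of TTCGCGC, at 219 and 158 bases before the start, and TTGGCGC 34 bases after it), all within annotated Dnmt1 exons, and the other 2 held none. Mbd3 held 1 word, 8 bases after its start, and the windows of Dnmt3a, Dnmt3b, Tet1, Tet2 and Tet3 held none. The Tet2 window was the richest in CpG of the 13, with a ratio of observed to expected CpG of 1.17, higher than in 99.2% of all windows. A match is a description of the letters and not a binding site.

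Total counts were between 14355308 and 17598873 per library, and Pearson's r of log2 CPM (counts scaled to library size) across the tested genes was 0.994 within each pair of replicates and 0.981 to 0.983 between groups. Rybp itself had 4.43 and 3.95 FPKM in ctrl and 3.01 and 2.66 in shRybp (FPKM is the read count scaled by exon length and by the depth of the library). Its level in shRybp was 65.8% of ctrl (edgeR adjusted p = 0.0017), with a log2 change of -0.60 and an SE of 0.12, where log2 change stands for the log2 fold change of shRybp over ctrl. The groups are thus a partial knockdown and its control. The progenitor markers Sox2 (98.3 to 138 FPKM), Nes (146 to 244 FPKM) and Vim (472 to 614 FPKM) were present in every library, and of 11 tested markers of the progenitor list 2 rose (Nes and Vim) and 5 fell (Hes5 by the most, at -1.79, and Slc1a3, Fabp7, Msi1 and Sox2), with a median log2 change of -0.23 and sums of 3145 to 3407 FPKM in ctrl and 2576 to 2661 in shRybp. In contrast, 7 of 9 microglia markers and 5 of 7 endothelial markers had no row under their symbols in the deposited table. The others of each list summed to under 1 FPKM per library. Markers of other neural cells moved between the groups, where 16.3% of all genes tested rose and 16.7% fell. All 9 astrocyte markers tested fell, and their list summed to 1230 to 1275 FPKM in ctrl and 667 to 704 in shRybp. Of 9 oligodendrocyte lineage markers 4 fell (837.8 to 869 and 763 to 796 FPKM), and of 9 neuron markers 4 fell and 2 rose (237 to 259.8 and 334 to 351 FPKM). The part of these shifts in the results below was not tested, and in bulk samples fewer cells of a type and less RNA per cell cannot be told apart.

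Of the 9 genes, 8 had a mean of at least 1 FPKM and were tested. Dnmt1 and Uhrf1 rose in shRybp, Tet2 fell, and Dnmt3a, Tet1, Tet3, Mbd2 and Mbd3 did not pass the threshold of adjusted p 0.05. These 3 calls among 8 genes stand beside 33.0% called among all 12062 genes tested (16.3% rose and 16.7% fell), so the share called in the set is near the background. The median log2 fold change was 0.10 over the 8 genes and 0.00 over all genes tested. Groups were free of overlap in FPKM for 6 of the 8, beside 67.5% of all genes tested.

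**Figure D1:**
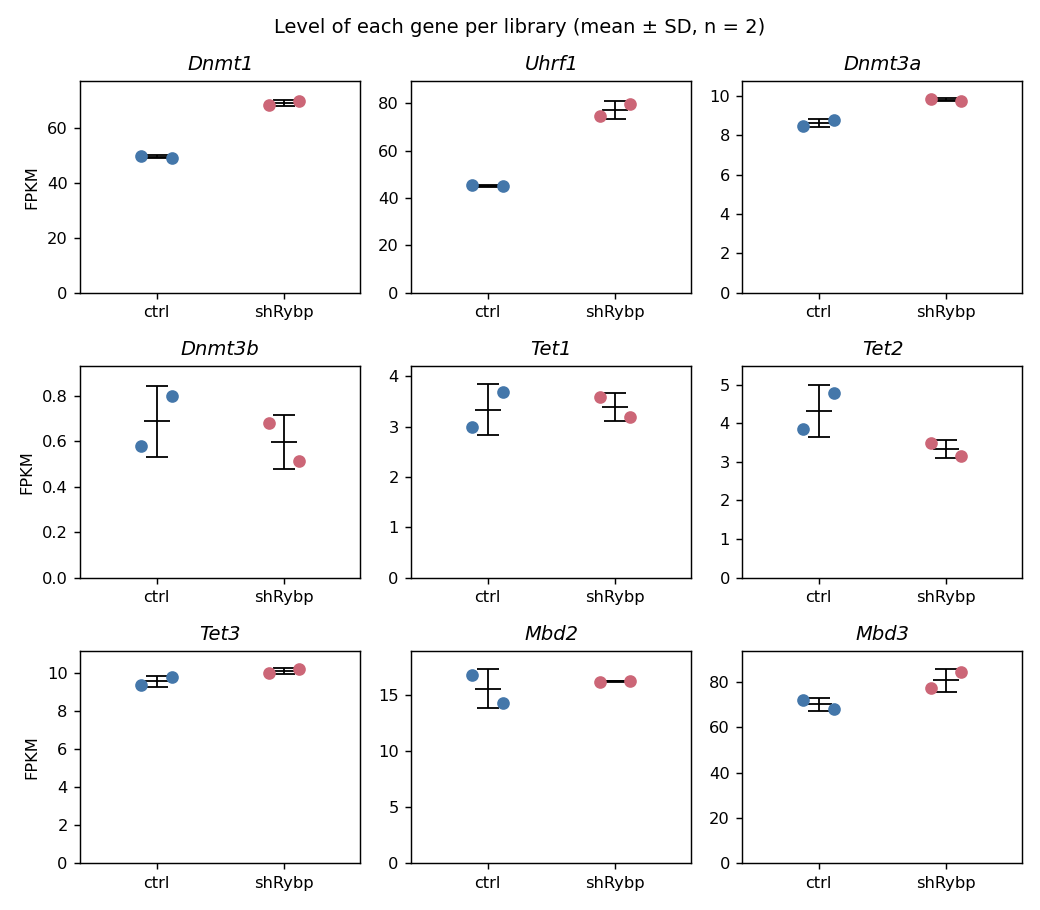
FPKM of each of the 9 genes in the 2 ctrl libraries (blue) and the 2 shRybp libraries (red), with the mean ± SD as black bars and a vertical axis from 0 in each panel. Both shRybp libraries lie far above both ctrl libraries for Dnmt1 and Uhrf1 and below them for Tet2, and the groups overlap for Dnmt3b, Tet1 and Mbd2.

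Maintenance methylation was where the largest change of the set lay. Uhrf1 (ENSMUSG00000001228, mm10 chromosome 17, 56303321 to 56323486, plus strand) had 45.5 and 44.9 FPKM in ctrl and 74.6 and 79.9 in shRybp, from 3413, 3052, 4567 and 5589 counts. Both shRybp libraries were higher than both controls, and the group means lay 6.03 times as far apart as the more distant pair of replicates. The gene rose 1.67-fold (log2 change 0.74, SE 0.06, 95% interval 0.60 to 0.87, edgeR adjusted p = 3.1e-06), higher than 98.4% of the genes tested. Dnmt1 (ENSMUSG00000004099, mm10 chromosome 9, 20907209 to 20959888, minus strand) had 49.7 and 49.1 FPKM in ctrl and 68.1 and 69.8 in shRybp, from 6466, 5786, 7226 and 8460 counts. Again both shRybp libraries were the higher ones, and the group means were apart by 11.5 times the larger gap between replicates. Dnmt1 rose 1.36-fold (log2 change 0.44, SE 0.06, 95% interval 0.32 to 0.57, edgeR adjusted p = 0.00014), higher than 93.6% of the genes tested.

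Uhrf1 and Dnmt1 changed places in level. On the FPKM scale the ratio of Uhrf1 to Dnmt1 was 0.91 in both ctrl libraries, and 1.09 and 1.14 in the shRybp libraries. Dnmt1 was thus the more abundant transcript per length in both controls and Uhrf1 in both shRybp libraries. An exact two-sided permutation test of such a ratio over 2 against 2 libraries cannot give a p below 0.333, so no test is given for differences between members. The ratio rests on the length assigned to each gene, but the order also turned when the length of the longest protein-coding transcript was used, with means of 53.6 for Uhrf1 and 62.1 for Dnmt1 in ctrl and 91.7 and 86.7 in shRybp.

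Of the 11 tested genes that work with the maintenance pair, 7 rose and 1 fell, with a median log2 fold change of 0.24. Among all genes tested 16.3% rose and 16.7% fell, and the S phase list described below had a higher median (0.44). Hells, the remodelling helicase that maintenance in heterochromatin needs, had 10.3 and 8.96 FPKM in ctrl and 15.3 and 14.5 in shRybp (log2 change 0.60, SE 0.08, edgeR adjusted p = 0.00014). The cell-division-cycle-associated gene Cdca7l rose by the same amount (0.60), while its relative Cdca7, a partner of Hells, did not pass (0.05). Pcna, the sliding clamp that tethers Dnmt1 to the fork, had 142 and 132 FPKM in ctrl and 183 and 173 in shRybp (log2 change 0.34, edgeR adjusted p = 0.0018), and the PCNA-associated factor gene Pclaf rose with a log2 fold change of 0.38. Trim28, the corepressor recruited by zinc finger proteins to imprinted regions and transposable elements, had 74.4 and 75.9 FPKM in ctrl and 97.7 and 103 in shRybp (log2 change 0.38, edgeR adjusted p = 0.00044). Usp7, a deubiquitinase that binds both Dnmt1 and Uhrf1, rose by less (0.20, edgeR adjusted p = 0.024), and lost the call without ctrl replicate 2 (adjusted p = 0.14) or without shRybp replicate 1 (0.15). Uhrf2, the paralogue of Uhrf1, had a log2 fold change of -0.05 and did not pass. The gene that fell was Zfp445 (-0.17, edgeR adjusted p = 0.040), which encodes a zinc finger protein of imprinted regions, and its call was lost when any 1 library was left out. Zfp57, with a like role, did not pass (-0.22). Without ctrl replicate 2, 5 of the 11 rose and 0 fell.

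The de novo genes did not pass the test. Dnmt3a (ENSMUSG00000020661, mm10 chromosome 12, 3806007 to 3914443, plus strand) had 8.49 and 8.77 FPKM in ctrl and 9.87 and 9.76 in shRybp, from 2491, 2332, 2362 and 2668 counts. Both shRybp libraries were the higher ones, but the difference was small (log2 change 0.15, SE 0.06, 95% interval 0.02 to 0.28, edgeR adjusted p = 0.074). The unadjusted interval leaves out 0 and the adjusted p misses the threshold, and the gene passed when libraries were scaled by their totals alone (adjusted p = 0.030). Dnmt3a has 18 annotated transcripts, which gene counts do not separate, and shares exon bases with the antisense gene Dnmt3aos, whose reads cannot be told apart without strand information. Dnmt3b (ENSMUSG00000027478, mm10 chromosome 2, 153649450 to 153687730, plus strand) was the lowest of the 9, at 0.58 and 0.80 FPKM in ctrl and 0.68 and 0.51 in shRybp, from 52, 65, 50 and 43 counts. It was below the level needed for the test, and its groups overlap. In the fit with no filter on low values, where 31.4% of 13881 genes were called, its log2 fold change was -0.24 with a 95% interval of -0.76 to 0.29 (edgeR adjusted p = 0.50), so a change of 1.5-fold down lies within its interval.

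Among 9 tested partners of de novo methylation 1 rose and 0 fell, with a median log2 fold change of 0.04. The share called was below the 33% of all genes tested. The gene that rose was Morc2a (0.18, edgeR adjusted p = 0.041), an ATPase of gene silencing, and it lost the call when any 1 of the 4 libraries was left out (adjusted p = 0.066 to 0.23). The histone methyltransferase genes Setd2 (-0.04), Nsd1 (0.04) and Nsd2 (0.05), whose marks Dnmt3 proteins bind, did not pass. Dnmt3l, the catalytically inactive cofactor, had no row under its symbol in the deposited table.

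**Figure D2:**
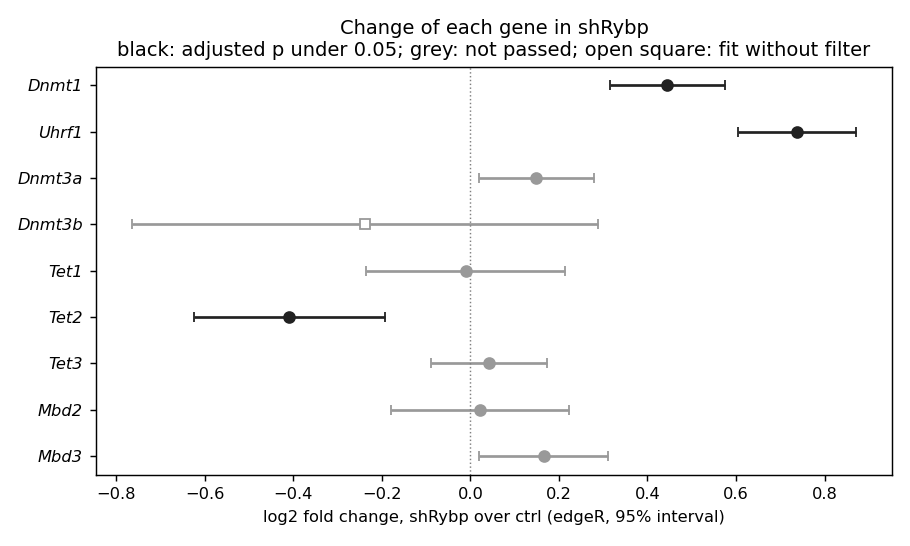
Log2 fold change of each gene, shRybp over ctrl, with its 95% interval from edgeR. Uhrf1 at 0.74, Dnmt1 at 0.44 and Tet2 at -0.41 passed the threshold (black), the intervals of Tet1, Tet3 and Mbd2 contain 0, and Dnmt3b (open square) comes from the fit without a filter.

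Of the 3 Tet genes 1 passed the test. Tet2 (ENSMUSG00000040943, mm10 chromosome 3, 133463679 to 133545139, minus strand) had 3.84 and 4.78 FPKM in ctrl and 3.50 and 3.16 in shRybp, from 1143, 1288, 848 and 876 counts. Both shRybp libraries were lower than both controls, but the gap between the group means was only 1.05 times that between the ctrl libraries. Tet2 fell to 75.3% of ctrl (log2 change -0.41, SE 0.10, 95% interval -0.62 to -0.19, edgeR adjusted p = 0.0073). The size of the fall rests on ctrl replicate 2, the highest library: without it the log2 fold change was -0.26 and the call was lost (edgeR adjusted p = 0.056), and without ctrl replicate 1 it was -0.55. Limma on log2(FPKM + 1) also missed the threshold (-0.29, adjusted p = 0.089). Tet2 shares exon bases with the antisense gene model Gm42567, which has no count of its own here.

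Tet3 (ENSMUSG00000034832, mm10 chromosome 6, 83362373 to 83459084, minus strand) was the most abundant of the 3 and varied least, with 9.37 and 9.78 FPKM in ctrl and 9.98 and 10.2 in shRybp. Its log2 fold change was 0.04 (SE 0.06, 95% interval -0.09 to 0.17, edgeR adjusted p = 0.63), an interval that spans from 5.95% lower to 12.7% higher. Tet1 (ENSMUSG00000047146, mm10 chromosome 10, 62804570 to 62908996, minus strand), best known from embryonic stem cells, had 2.99 and 3.69 FPKM in ctrl and 3.59 and 3.20 in shRybp. Its groups overlap, and the log2 fold change was -0.01 (SE 0.10, 95% interval -0.24 to 0.21, edgeR adjusted p = 0.95). In ctrl the level of Tet2 was above that of Tet1 in both libraries, with ratios of Tet1 to Tet2 of 0.78 and 0.77, and in shRybp the ratios were 1.03 and 1.01. On the length of the longest protein-coding transcript Tet2 stayed above Tet1 in both groups (7.92 against 3.59 in ctrl and 6.12 against 3.65 in shRybp), so only the narrowing of the gap, and not the order, held on both lengths. The summed level of the 3 genes was 16.2 and 18.3 FPKM in ctrl and 17.1 and 16.6 in shRybp, and the groups overlap.

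**Figure D3:**
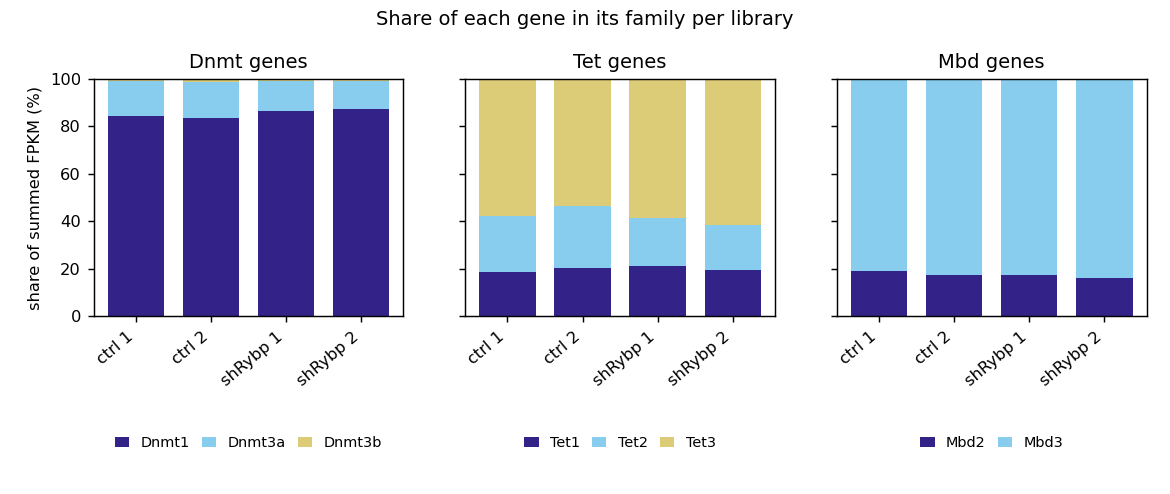
Share of each gene in the summed FPKM of its family (percent), per library, as stacked bars from 0 to 100. Dnmt1 holds 83.7% to 87.2% of the Dnmt sum, the share of Tet2 is lower in both shRybp libraries than in both ctrl libraries, and Mbd3 holds 81.1% to 83.8% of the pair.

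Shares within families show the same data without scaling by library. Dnmt1 took 84.6% and 83.7% of the summed FPKM of the 3 methyltransferase genes in ctrl and 86.6% and 87.2% in shRybp, and Dnmt3a took 14.44% and 14.95% against 12.5% and 12.2%. Dnmt3b never exceeded 1.36%. Tet3 took 57.8% and 53.6% of the Tet sum in ctrl and 58.5% and 61.6% in shRybp, and Tet2 took 23.7% and 26.2% against 20.47% and 19.06%. In share the groups did not overlap for Dnmt1, Dnmt3a, Dnmt3b, Tet2, Tet3, Mbd2 and Mbd3, and they did for Tet1. For Mbd2 the gap was slight, with 17.37% in ctrl replicate 2 and 17.32% in shRybp replicate 1. Shares within a family add up to the whole, so they are tied to each other and are not separate results.

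Of 20 tested genes of base excision and of the steps around oxidation, 5 rose and 1 fell, with a median log2 fold change of 0.05. This share called was near the 33% of all genes tested. Tdg, the glycosylase that removes oxidised 5-methylcytosine, had 29.1 and 25.8 FPKM in ctrl and 28.4 and 29.9 in shRybp and did not pass (log2 change 0.05, 95% interval -0.10 to 0.21, edgeR adjusted p = 0.62). Ung, the uracil glycosylase, rose from 3.19 ± 0.15 to 4.83 ± 0.21 FPKM (SD, n = 2; log2 change 0.56, edgeR adjusted p = 0.00067). Apex1, the endonuclease of abasic sites, rose from 49.3 ± 1.94 to 63.7 ± 0.17 FPKM (0.33, edgeR adjusted p = 0.0030). Gadd45g, a growth-arrest gene linked to active demethylation, rose from 12.1 ± 1.71 to 18.9 ± 2.88 FPKM (0.62, edgeR adjusted p = 0.0030). Ogt, the glycosyltransferase that binds Tet proteins, fell from 35.0 ± 1.52 to 30.8 ± 0.87 FPKM (-0.22, edgeR adjusted p = 0.015), and lost the call without ctrl replicate 2 (adjusted p = 0.089) or shRybp replicate 1 (0.085). Without ctrl replicate 2, 3 of the 20 rose and 0 fell.

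The readers did not pass the test. Mbd3 (ENSMUSG00000035478, mm10 chromosome 10, 80392539 to 80399550, minus strand) was the most abundant of the 9 genes, with 72.3 and 68.3 FPKM in ctrl and 77.3 and 84.4 in shRybp, from 2534, 2167, 2210 and 2756 counts. Both shRybp libraries were higher, and the group means were apart by 1.49 times the larger gap between replicates (log2 change 0.17, SE 0.07, 95% interval 0.02 to 0.31, edgeR adjusted p = 0.076). Like Dnmt3a it passed under scaling by library totals alone (adjusted p = 0.034). Mbd2 (ENSMUSG00000024513, mm10 chromosome 18, 70568189 to 70626131, plus strand) had 16.9 and 14.4 FPKM in ctrl and 16.2 and 16.3 in shRybp, from 955, 737, 749 and 861 counts. The shRybp libraries lay between the controls (log2 change 0.02, SE 0.09, 95% interval -0.18 to 0.22, edgeR adjusted p = 0.88). Mbd3 stood at 4.29 and 4.76 times the level of Mbd2 in ctrl and 4.77 and 5.18 times in shRybp.

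Of 12 other methyl-CpG readers 1 rose and 1 fell, with a median of -0.08, beside 33.0% called among all genes tested. Mbd1, a reader that represses transcription, had 8.75 and 9.31 FPKM in ctrl and 8.40 and 8.83 in shRybp (log2 change -0.10, edgeR adjusted p = 0.33). The calls were Baz2a (0.24), lost without ctrl replicate 1 (adjusted p = 0.17) or either shRybp replicate (0.062 and 0.088), and Mbd5 (-0.28), lost without ctrl replicate 2 (0.061) or shRybp replicate 2 (0.091). Of 12 tested NuRD subunits 4 rose and 0 fell, with a median of 0.07, and the share called was near the 33.0% of all genes tested. Chd4, the main ATPase of the complex in progenitors, had 85.7 and 86.2 FPKM in ctrl and 83.3 and 83.6 in shRybp and did not pass (log2 change -0.08, 95% interval -0.21 to 0.05, edgeR adjusted p = 0.35). The histone-binding subunit gene Rbbp7 rose from 73.4 ± 1.31 to 98.8 ± 2.67 FPKM (SD, n = 2; 0.39, edgeR adjusted p = 0.00034), Mta1 rose from 26.2 ± 0.19 to 33.5 ± 0.64 FPKM (0.32, edgeR adjusted p = 0.0026) and Gatad2a, whose product bridges the Mbd subunit to the ATPase, from 20.4 ± 0.20 to 25.4 ± 0.97 FPKM (0.28, edgeR adjusted p = 0.0046). Of 8 genes of CXXC proteins, which bind unmethylated CpG, 1 rose (Kdm2b, 0.27) and 1 fell (Cxxc4, -0.36), and neither call held without shRybp replicate 2 (adjusted p = 0.19 and 0.060).

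Of 8 tested genes listed for the cycle that supplies S-adenosylmethionine, the methyl donor, 4 rose and 2 fell, with a median log2 fold change of 0.26. Over all genes tested 16.3% rose and 16.7% fell. Ahcy, which clears the product inhibitor S-adenosylhomocysteine, had 26.6 FPKM in both ctrl libraries and 41.0 and 43.4 in shRybp (log2 change 0.63, SE 0.07, edgeR adjusted p = 2.1e-05). Its relatives Ahcyl1 and Ahcyl2, which encode proteins without that enzyme activity, fell, Ahcyl1 from 82.9 ± 2.10 to 64.6 ± 2.15 FPKM (-0.40, edgeR adjusted p = 0.00042) and Ahcyl2 from 8.84 ± 0.08 to 6.37 ± 0.18 FPKM (-0.51, edgeR adjusted p = 6.7e-05). The synthetase genes Mat2a (0.27, edgeR adjusted p = 0.0051) and Mat2b (0.36, edgeR adjusted p = 0.011) rose, and both lost the call without ctrl replicate 2 (adjusted p = 0.056 and 0.11). Without that library 1 of the 8 rose and 2 fell.

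**Figure D4:**
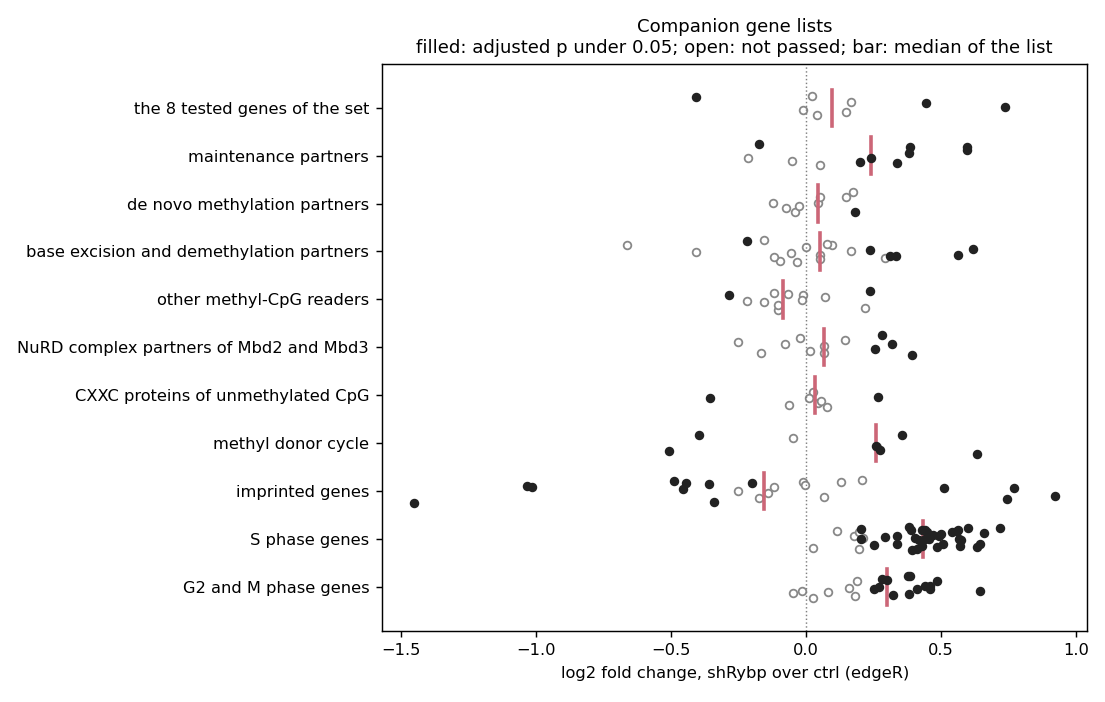
Log2 fold change, shRybp over ctrl, of each tested gene of the set and of its companion lists, with filled points for adjusted p under 0.05 and a red bar at the median of each list. The medians of the S phase list (0.44) and of the G2 and M phase list (0.30) lie to the right of most other lists, and the imprinted genes spread from -1.45 to 0.92.

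Dnmt1 and Uhrf1 act on newly replicated DNA, and genes of the division cycle moved in the same libraries. Of 40 S phase genes 34 rose and 0 fell, with a median log2 fold change of 0.44 and a range of 0.03 to 0.72. Of 21 G2 and mitosis genes 14 rose and 0 fell, with a median of 0.30. Over all genes tested 16.3% rose and 16.7% fell. Mcm5 (0.72) and Mcm2 (0.65), subunits of the replicative helicase, and Rrm2 (0.66), of ribonucleotide reductase, had the lowest adjusted p of the S phase list, and the mitotic kinase gene Plk1 (0.65), Anln (0.48) of cytokinesis and Cdc20 (0.46) of anaphase entry had the lowest of the other. The rise of Dnmt1 was within the range of the S phase list, above 22 of its genes and below 18. That of Uhrf1 was above all 40, just above that of Mcm5. Divided by the geometric mean FPKM of the 40 genes, Dnmt1 stood at 3.21 and 3.29 in ctrl and 3.20 and 3.42 in shRybp, and the groups overlap. The same ratio for Uhrf1 was 2.931 and 3.004 in ctrl and 3.50 and 3.92 in shRybp, without overlap. For the other 7 members this ratio was lower in both shRybp libraries than in both controls. The list itself rose, so a gene that changed clearly less than the list gives a lower ratio without falling. Among these 7 only Tet2 fell by its own test. Its ratio was the lowest against ctrl, at 0.25 and 0.32 in ctrl and 0.16 and 0.15 in shRybp. Divided by the summed FPKM of the list instead, Dnmt1 again overlapped between groups (6.02% and 6.21% of the sum in ctrl, 5.90% and 6.25% in shRybp) and Uhrf1 did not. Against the geometric mean of the 21 G2 and mitosis genes both genes were higher in shRybp without overlap, Dnmt1 at 1.27 and 1.30 in ctrl and 1.41 and 1.46 in shRybp, and Uhrf1 at 1.16 and 1.19 in ctrl and 1.54 and 1.67 in shRybp. The part of the division cycle in the changes of Dnmt1 and Uhrf1 was not tested.

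**Figure D5:**
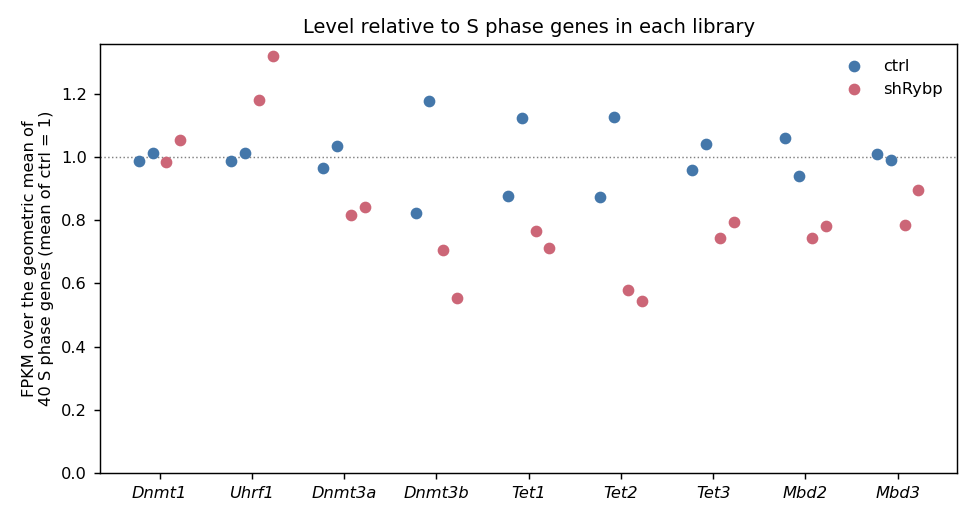
FPKM of each gene divided by the geometric mean FPKM of 40 S phase genes in the same library, set to a ctrl mean of 1, for the 2 ctrl (blue) and 2 shRybp (red) libraries. The shRybp points of Uhrf1 lie above its ctrl points, those of Dnmt1 overlap, and those of the other 7 genes lie below. The S phase genes rose in shRybp, so a point below the ctrl points does not mean a lower FPKM.

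The genes whose profile over the 4 libraries was most like that of Uhrf1, by root-mean-square distance of centred log2 CPM among the 7951 other genes with a mean of at least 5 FPKM, were Litaf (0.012), Plekhh2 (0.020), Fstl1 (0.023) and Ociad2 (0.026). Those most like Dnmt1 were Toe1 (0.0072), Msn (0.0075), Eif5a (0.0079) and the mitotic kinase gene Aurkb (0.0092). Within a distance of 0.1 there were 912 genes for Dnmt1 and 100 for Uhrf1. In likeness to Dnmt1 Uhrf1 had rank 1872, and in likeness to Uhrf1 Dnmt1 had rank 276. With close replicates this distance mostly follows the difference in log2 fold change. Litaf (0.73) was near Uhrf1 (0.74) in that value, and Toe1 (0.45) near Dnmt1 (0.44). The counts and ranks thus mostly say how many genes changed by a like amount, and do not show whether genes are regulated together.

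Genes that depend on DNA methylation for silencing or for expression from 1 parental allele were listed as readouts, although no methylation was measured. Of 18 germline genes with methylated promoters in somatic cells, 16 had no row under their symbols in the deposited table. Dmrtb1, of germ cell differentiation, did not pass (-0.22). Brdt, a testis bromodomain gene, had 1.12 and 1.20 FPKM in ctrl and 0.58 and 0.61 in shRybp, a mean below the level needed for the test, and it fell in the fit without a filter. Of 22 tested imprinted genes 4 rose and 9 fell, with a median log2 fold change of -0.16. Over all genes tested 16.3% rose and 16.7% fell, and counts of a gene do not separate its alleles. H19, a maternally expressed non-coding RNA, fell from 3.43 ± 0.22 to 1.29 ± 0.14 FPKM (SD, n = 2, log2 change -1.45, edgeR adjusted p = 8.5e-05). Its neighbour Igf2 had no row under its symbol in the deposited table. Nap1l5, a nucleosome assembly gene, fell from 51.2 ± 4.43 to 26.0 ± 0.90 FPKM (-1.02, edgeR adjusted p = 2.8e-06) and Nnat, a paternally expressed proteolipid gene, from 198 ± 2.99 to 148 ± 2.94 FPKM (-0.46, edgeR adjusted p = 0.00010). Peg10, a paternally expressed gene of retrotransposon origin, rose from 31.3 ± 0.02 to 61.0 ± 4.56 FPKM (0.92, edgeR adjusted p = 1.1e-06), Igf2r, a maternally expressed receptor, from 7.66 ± 0.70 to 13.4 ± 1.17 FPKM (0.77, edgeR adjusted p = 2.1e-05) and Grb10, a signalling adaptor with imprinted expression, from 2.58 to 4.44 FPKM (0.74, edgeR adjusted p = 4.4e-05). Maternally expressed genes were thus on both sides, as were paternally expressed ones.

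In order of mean FPKM over the 4 libraries the members were Mbd3 (75.6), Uhrf1 (61.2), Dnmt1 (59.2), Mbd2 (15.9), Tet3 (9.84), Dnmt3a (9.22), Tet2 (3.82), Tet1 (3.37) and Dnmt3b (0.64). Uhrf1 and Dnmt1 changed order between the groups. Tet2 and Tet1 did so on FPKM only, and not on the length of the longest protein-coding transcript. Mbd3 was above Uhrf1 in every library, although in shRybp the ranges of these genes overlap (77.3 to 84.4 and 74.6 to 79.9 FPKM). Tet3 was above Dnmt3a in every library, by least in shRybp replicate 1 (9.98 against 9.87 FPKM). The FPKM values rest on the union of all annotated exons, which is much longer than a single transcript for Dnmt3a (16642 against 9685 bases) and Tet2 (16870 against 9179 bases). On the length of the longest protein-coding transcript Dnmt1 came before Uhrf1 and Dnmt3a before Tet3, and the other ranks were as above.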

How the data were processed

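Transcripts of 4 libraries were analysed, 2 ctrl and 2 shRybp, grouped by the hairpin named in the labels. The deposited table holds raw read counts per gene, which the authors did not normalize, and FPKM values that the authors made from them. FPKM divides by the union of exons, since its length matched that of GENCODE M21, the annotation used here for strand and overlaps, to within 5% for 13754 genes. Per the submitters' processing notes the genome build is mm10. The aligner, the counter and the use of strand were not given in the sources used here. Every gene has at least 40 counts over the 4 libraries. Symbols that a spreadsheet had turned into dates (21) were restored from Ensembl identifiers.

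Groups were compared with edgeR 4.0.16 in R 4.3.3 (TMM scaling, quasi-likelihood fit, two-sided) on the counts of 12062 genes whose FPKM averaged 1 or more, with Benjamini-Hochberg adjustment over all of them. SE is the absolute log2 fold change over the square root of F. On simulated data for this comparison over 12062 genes, 16 of 67 genes changed 1.25-fold, 58 of 67 changed 1.5-fold and 63 of 66 changed 2-fold were found, with 10 unchanged genes called. Only these few genes were changed in the simulation, whereas 3983 were called in the data. The adjustment was thus stricter in the simulation, and its counts do not give the share of such changes found in the data. Replicates differed beyond counting noise (chi-square per degree of freedom 5.18 and 4.37). Alternatives used limma 3.58.1, DESeq2 1.42.0, other scalings, filters and pseudocounts, and each library left out. Members, lists and tests were chosen with earlier results of these data known. Named genes are all members, Rybp, direct partners, and of each list up to 3 genes of lowest adjusted p per direction, and further list genes were named after their values were seen. 1 named partner is not reported here.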

Additional observations from a re-analysis of the deposited data

How the results depend on the processing

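Uhrf1 (log2 fold change 0.69 to 0.78) and Dnmt1 (0.42 to 0.48) rose under all 14 alternatives, and Rybp fell under all 13 in which it was tested. Tet2 fell in 9 of 13 and missed the threshold in the 3 limma fits (adjusted p = 0.066 to 0.089) and without ctrl replicate 2. Tet1, Tet3 and Mbd2 passed in none, and the sign turned for Tet1 in 6 of 13 and for Mbd2 in 1 of 14. The number of members called was 5 under library totals without TMM and 5 with the replicate number as a block, where Dnmt3a and Mbd3 also passed (block adjusted p = 0.019 and 0.020). Leaving out 1 library, which assumes that the lone library left varies like the other group, gave 2 to 3 calls, with 2 only without ctrl replicate 2. The block raised the calls over all genes from 3983 to 5328. Same-numbered libraries deviated together only weakly (r = 0.10 across genes), no label says that a number marks a shared culture, and the 2 pairs are not treated as paired. The share of Dnmt1 in its family was higher in shRybp by 2.75 percentage points on FPKM, 4.11 on counts without length scaling and 3.27 on the longest transcript, a length chosen after seeing the data. Of all promoter windows 7.89% held an E2F word when only 250 bases upstream were searched, again without matching for CpG. Of the 13 windows of the members 3 did, since the word of Mbd3 lies after its start. Of 154 list counts under the alternatives 127 were within 1.5 times the main count. Depth limits what can be said of Dnmt3b, which had 43 to 65 counts per library.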
